A study of Capra hircus with 2 samples.

Results

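miR-10a and miR-10b are microRNAs whose genes lie inside the Hox gene clusters, and they were followed here in the mammary gland of the dairy goat (Capra hircus) at peak and late lactation. Reads were taken as members when they held nt 2 to 11 and nt 13 to 18 of the mature miR-10 sequence, and were given to miR-10a when base 12 was T and to miR-10b when it was A. In all, 368 of the 659118 distinct sequences (tags) of both libraries were members, 119 of miR-10a and 249 of miR-10b. The study took tissue by surgery from Laoshan dairy goats that were 4 years old and in the third lactation, at 90 days postpartum for peak lactation and at 210 days postpartum for late lactation. The total RNA of 5 goats made 1 pool per stage, which was sequenced as 1 small RNA library, and the labels name no treatment or genetic change in either group. The paper names 5 goats and does not say outright whether the same animals gave tissue at both stages. Each stage therefore had no replicate library, the spread between goats was lost in the pool, and no test across animals was possible.

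A microRNA guides the silencing complex to messenger RNAs mainly through its seed, which is formed by bases 2 to 8. miR-10a and miR-10b share this seed, so they are expected to recognise largely the same targets, and transcripts of Hox genes are among their known targets. In the RefSeq annotation of the goat assembly ARS1.2, MIR10A lay between HOXB5 and HOXB3, and MIR10B lay next to HOXD3. Hox genes encode transcription factors that set position along the body axis and that are also used in the growth of organs such as the mammary gland. miR-10b is also known from work on the migration of breast tumour cells.

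The tags carried no names, and the sequences shown next were read from the deposited tags. They are the 5 most abundant tags of each member in each library, because they carry most of the reads and show how the members differ. T stands for U, the first run of capitals is the seed of the tag (its own bases 2 to 8), and the last capital is base 12 of the mature sequence. Positions were counted from nt 1, the first base of the leading form.
miR-10a, nt 1 to 22: tACCCTGTagaTccgaatttgt
miR-10a, nt 1 to 23: tACCCTGTagaTccgaatttgtg
miR-10a, nt 1 to 21: tACCCTGTagaTccgaatttg
miR-10a, nt 2 to 23: aCCCTGTAgaTccgaatttgtg
miR-10a, nt 2 to 22: aCCCTGTAgaTccgaatttgt
miR-10a, nt 1 to 24: tACCCTGTagaTccgaatttgtga
miR-10b, nt 1 to 22: tACCCTGTagaAccgaatttgt
miR-10b, nt 1 to 23: tACCCTGTagaAccgaatttgtg
miR-10b, nt 2 to 22: aCCCTGTAgaAccgaatttgt
miR-10b, nt 1 to 21: tACCCTGTagaAccgaatttg
miR-10b, nt 2 to 23: aCCCTGTAgaAccgaatttgtg

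The pair was found by its base 12, which is also the rule that defines the members, and pairs that differ at other bases were not searched. Grouped by their first 18 nt with base 12 left free, 942 groups had at least 1000 reads, and in 1 of them both A and T at base 12 held at least 10% of the reads. This group begins with the sequence of the members, and the next such pair had 659 reads. A tag that begins at nt 2 puts other bases in its seed, so the forms shown fall into 2 seeds, ACCCTGT for tags that begin at nt 1 and CCCTGTA for tags that begin at nt 2.

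Both libraries were deep for these members. They held 19044002 clean reads at peak lactation and 7385833 at late lactation, so 1 read stood for 0.0525 reads per 1000000 clean reads (RPM) at peak lactation and 0.135 RPM at late lactation. Of the high-quality reads, 0.0494% at peak lactation and 14.03% at late lactation had been removed as 5′ adaptor contaminants. Reads shorter than 18 nt made up 0.759% and 4.14%, and reads without an insert 0.628% and 7.73%, and were removed as well. The part of these differences in the values that follow was not tested. Intervals express the counting error of reads alone. PCR copies of 1 molecule are counted as separate reads, so the intervals can be too narrow for molecules. No table of mature sequences was used here, so lists of epithelial, stromal, endothelial, blood and muscle microRNAs were not analysed as a whole, and neither were miR-615, miR-196b, the related miR-99, miR-100 and miR-125, or the 3p arms of the members. In bulk tissue, fewer cells that express a microRNA and less of it per cell cannot be told apart.

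Both members were lower in the late library, miR-10a far more than miR-10b. miR-10a had 29921 reads at peak lactation, 1571 RPM (95% exact Poisson interval 1553 to 1589). It had 2611 reads at late lactation, 354 RPM (340.1 to 367). The log2 ratio of late over peak lactation was -2.15 (95% exact binomial interval -2.21 to -2.09), which is 4.44-fold lower in the late library. The miR-10a intervals of the 2 libraries did not overlap.

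miR-10b was the more abundant member in both libraries. It had 99142 reads at peak lactation, 5206 RPM (5174 to 5238). It had 20848 reads at late lactation, 2823 RPM (2785 to 2861). Its log2 ratio was -0.88 (-0.90 to -0.86), 1.84-fold lower in the late library. The miR-10b intervals did not overlap either, but the ratio stayed under 2-fold. For both members the intervals are narrow because the reads are many, and the share of other groups without overlap is not given here.

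Summed over both members, the miR-10 reads made up 0.678% of the clean reads at peak lactation and 0.318% at late lactation, a log2 ratio of -1.09 (-1.11 to -1.07).

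**Figure D1:**
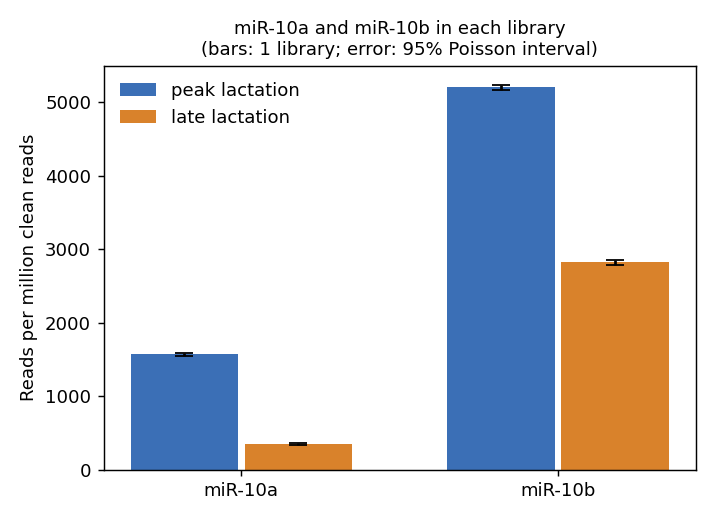
Reads per 1000000 clean reads (RPM) of miR-10a and miR-10b (vertical axis) in the peak and late lactation libraries (bars, 1 library each), with 95% exact Poisson intervals as error bars. The miR-10a bars stand at 1571 and 354 RPM and the miR-10b bars at 5206 and 2823 RPM, so both fall from peak to late and miR-10b is the taller in each library.

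The balance between the members shifted toward miR-10b. At peak lactation 76.8% of the reads of both members were miR-10b (95% exact binomial interval 76.6% to 77.0%), or 3.31 reads of miR-10b for each read of miR-10a (3.27 to 3.36). At late lactation 88.9% were miR-10b (88.5% to 89.3%), or 7.98 reads for each read of miR-10a (7.67 to 8.32). The ratio of miR-10b to miR-10a was thus 2.41 times higher in the late library (95% exact conditional interval 2.31 to 2.52), a difference of 1.27 between the log2 ratios of the members (1.21 to 1.33). This comparison is made within each library and needs no scaling by depth. It compares 2 libraries and does not measure how goats vary.

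Other bases at position 12 were rare. Reads with C or G at base 12 numbered 26 at peak lactation and 11 at late lactation, which is 0.0201% and 0.0469% of all reads that matched the rest of the rule. With misreads of that frequency subtracted from each member, the share of miR-10b was 76.8% at peak and 88.9% at late lactation, as without the subtraction.

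Reads with 1 mismatch elsewhere in nt 2 to 18 were left out of the members. For miR-10a they numbered 451 at peak lactation (1.51% of the member's reads) and 47 at late lactation (1.80%). For miR-10b they numbered 1214 (1.22%) and 277 (1.33%). The most frequent was the same in both members and libraries, A11C (A at position 11 of the members and C in the tag, counted from nt 1). It had 76 and 12 reads beside miR-10a and 171 and 72 reads beside miR-10b. Relative to the reads of miR-10b, A11C was at 0.172% at peak lactation and 0.345% at late lactation, and whether these reads are misreads was not tested.

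The fall of miR-10a was among the larger ones, and that of miR-10b was close to the middle of the abundant tags. To set a background, all tags were grouped by the same kind of match, nt 2 to 18 of the most abundant tag. Groups were not sorted by RNA class, so they can hold fragments of other RNAs as well as microRNAs. A group was called lower at 2-fold or more. Of 7766 groups with at least 1 RPM in one library, 26.6% were lower at late lactation by this limit and 39.5% were higher. Of 455 groups with at least 100 RPM, 34.5% were lower and 25.9% were higher. The background thus leaned to higher values over the larger set and to lower values among abundant groups. With a minimum of 1 read the share of lower groups was 60.9%, and over distinct tags it was 40.1%. A group without reads in one library is always called, since 0 was set to 0.01 RPM. At a minimum of 1 read, even 1 peak read (0.0525 RPM) against 0 is called lower, so that share follows depth too. Of the members 1 of 2 was called, miR-10a, so with calls this common the count of members shows nothing particular to them.

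Among the 455 abundant groups, 7.69% had a lower log2 ratio than miR-10a and 38.9% had a lower one than miR-10b. The median of these groups was -0.45, with quartiles at -1.24 and 1.11. The 7766 groups had a median of the opposite sign, 0.37, with quartiles at -1.09 and 2.23. Among them 11.9% were lower than miR-10a and 28.6% were lower than miR-10b. At peak lactation the group of miR-10b ranked 19 and that of miR-10a ranked 53 by reads, and at late lactation they ranked 34 and 154.

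**Figure D2:**
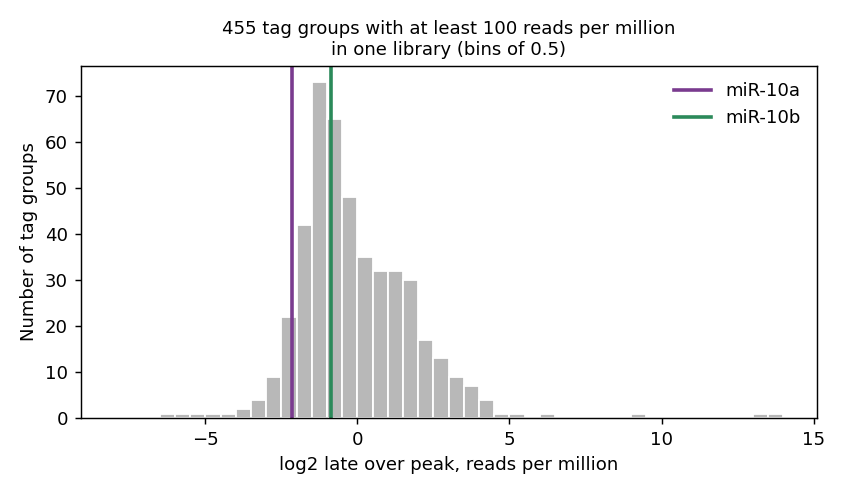
Number of tag groups (vertical axis) by log2 ratio of late over peak lactation (horizontal axis, bins of 0.5) for the 455 groups with at least 100 RPM in one library, with lines at the members and 2 groups without reads in one library set to 0.01 RPM there. miR-10a lies at -2.15, in the left flank, and miR-10b at -0.88, between the lower quartile of -1.24 and the median of -0.45.

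The abundant groups nearest to each member in log2 ratio were noted, which is a likeness over only 2 libraries. Within 0.1 of miR-10a lay 9 of 453 other groups, and within 0.1 of miR-10b lay 29. The leading tags of the nearest 3 for each member follow, in lower case throughout. The groups nearest to miR-10a had log2 ratios of -2.15, -2.12 and -2.19.
Nearest to miR-10a: ggatatcatcatatactgtaag
Second nearest to miR-10a: gcgggtgatgcgaactggagtctgagt
Next nearest to miR-10a: aagattactgtggacgataagcact
The groups nearest to miR-10b had log2 ratios of -0.88, -0.89 and -0.87.
Nearest to miR-10b: cggggacagtgccaggtgg
Second nearest to miR-10b: tagtctggcacggtgaaga
Next nearest to miR-10b: taggtagtttcatgttgttgg
Of these 6 tags, 2 could be named from well-known microRNA sequences after their values were seen. The nearest to miR-10a is miR-144-5p, of a microRNA known from red blood cells, which had 4982 reads at peak lactation and 436 at late lactation, a log2 ratio of -2.15. The other red blood cell microRNAs were not measured, and the part of blood in the value of miR-10a was not tested. The last tag is miR-196a, whose genes also lie in Hox clusters, and it had 9066 and 1920 reads, a log2 ratio of -0.87.

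Each member had a leading form of 22 nt, the tag from nt 1 to nt 22. This form of miR-10b had 74116 reads at peak lactation (3892 RPM, 74.8% of the member) and 14090 at late lactation (1908 RPM, 67.6%). That of miR-10a had 13237 reads at peak lactation (695 RPM, 44.2%) and 1209 at late lactation (164 RPM, 46.3%). miR-10b was therefore the more uniform member in both libraries. The leading form ranked 32 among all tags of the peak library for miR-10b and 112 for miR-10a, and 52 and 374 in the late library.

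The forms of miR-10b did not fall equally. The form of nt 1 to 22 had a log2 ratio of -1.03 (95% exact binomial interval -1.05 to -1.003), past 2-fold. The next longer form, nt 1 to 23, went from 338 to 277 RPM, a log2 ratio of -0.29 (-0.36 to -0.21). The next shorter form, nt 1 to 21, went from 171 to 132 RPM, a log2 ratio of -0.38 (-0.48 to -0.27). The leading form thus fell more than its neighbours on either side in these libraries.

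Forms of miR-10b that begin at nt 2 showed the same order. The form of nt 2 to 22 went from 216 to 93.7 RPM, a log2 ratio of -1.20 (-1.32 to -1.09). Its longer neighbour, nt 2 to 23, went from 124 to 81.4 RPM, a log2 ratio of -0.61 (-0.74 to -0.48). In both starts the form that ends at nt 22 fell more than the form that ends at nt 23.

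The forms of miR-10a were closer together, and their order was another one. The log2 ratios of the 6 forms shown ranged from -2.53 to -1.95. The form of nt 1 to 23 was the lowest, from 299.7 to 52.0 RPM, a log2 ratio of -2.53 (-2.68 to -2.38). The form of nt 1 to 22 had -2.09 (-2.17 to -2.001) and that of nt 1 to 21 had -2.15 (-2.35 to -1.96). The form of nt 1 to 24, which ends in A, went from 75.5 to 19.5 RPM, a log2 ratio of -1.95 (-2.21 to -1.71). Both forms that begin at nt 2 lay between these, at -2.44 (-2.69 to -2.20) for the one that ends at nt 23 and -2.29 (-2.57 to -2.02) for the one that ends at nt 22.

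**Figure D3:**
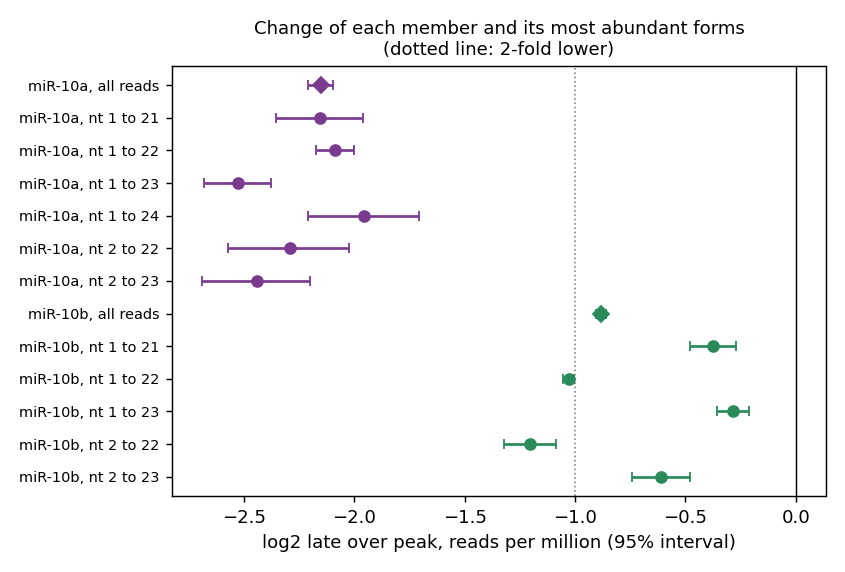
log2 ratio of late over peak lactation (horizontal axis, from RPM) of each member (diamonds) and of its most abundant forms (circles), with 95% exact binomial intervals and a dotted line at 2-fold lower. All miR-10a forms lie from -2.53 to -1.95, and the miR-10b forms spread from -1.20 to -0.29, with those that end at nt 22 past the line.

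The 3′ ends of the members differed more between miR-10a and miR-10b than between the stages. Of the miR-10b reads, 80.0% at peak lactation (79.7% to 80.2%) and 72.6% at late lactation (71.9% to 73.2%) ended at nt 22. Of the miR-10a reads, 50.9% (50.3% to 51.4%) and 53.6% (51.6% to 55.5%) did. miR-10a ended at nt 23 in 26.4% (25.9% to 26.9%) and 21.4% (19.8% to 23.03%) of reads, where miR-10b did in 9.49% (9.30% to 9.67%) and 13.7% (13.3% to 14.2%). The share that ends at nt 23 was thus lower in the late library for miR-10a and higher for miR-10b. Ends at nt 21 made up 10.2% and 9.996% of miR-10a and 3.49% and 5.01% of miR-10b. Among the rare ends of miR-10b, that at nt 18 had 22 reads at peak lactation and 40 at late lactation, a log2 ratio of 2.23 (1.44 to 3.05), higher in the late library. Removed reads shorter than 18 nt were also more frequent in the late library, and their part in this value was not tested.

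**Figure D4:**
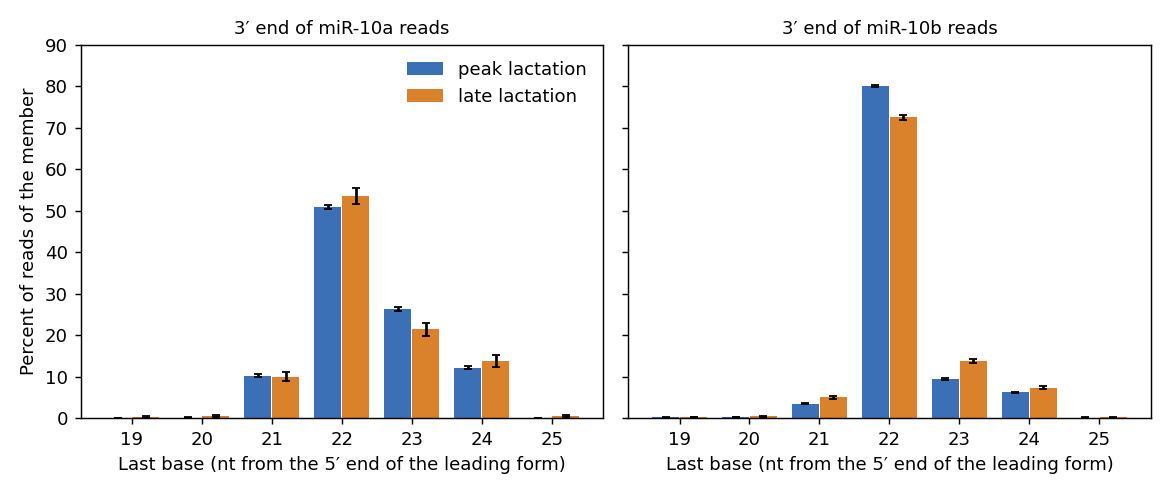
Share of the reads of miR-10a (left) and miR-10b (right) that end at each base (horizontal axis, nt from the 5′ end of the leading form) in the peak and late libraries, with 95% exact binomial intervals. The bar at nt 22 is at 50.9% and 53.6% for miR-10a and at 80.0% and 72.6% for miR-10b, and miR-10a has the larger share at nt 23 and 24.

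The change in the leading form of miR-10b was within the range of other tag groups. Over 243 other groups with at least 1000 reads in both libraries, the share of the leading tag changed by a median of 3.43 percentage points from peak to late lactation, with quartiles at -3.81 and 11.5. miR-10b changed by -7.19 points, and 202 of the 243 groups had a higher value. miR-10a changed by 2.06 points, and 137 groups had a higher value. As a level, the leading share of miR-10b at peak lactation was exceeded in 17 of the 243 groups and that of miR-10a in 72.

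Tags that end at nt 24 mostly carried A or T as their last base. In miR-10a, A was the last base of 77.4% of these reads at peak lactation (76.0% to 78.7%) and of 76.3% at late lactation (71.6% to 80.6%), and T of 21.1% and 22.01%. In miR-10b, A was the last base of 61.0% (59.8% to 62.2%) and 65.8% (63.4% to 68.2%), and T of 33.98% and 29.98%. A was thus the more frequent last base in both members, and more so in miR-10a. The precursors were not used here, so whether this A is encoded or added after cutting was not tested.

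The 5′ end sets the seed, and it was less variable than the 3′ end. Of the miR-10a reads, 80.3% at peak lactation (79.8% to 80.7%) and 80.8% at late lactation (79.2% to 82.3%) began at nt 1, and 18.9% (18.5% to 19.4%) and 17.9% (16.4% to 19.4%) began at nt 2. Of the miR-10b reads, 89.7% (89.5% to 89.9%) and 89.4% (89.0% to 89.9%) began at nt 1, and 10.2% (10.04% to 10.4%) and 10.4% (9.95% to 10.8%) began at nt 2. The shifted start was thus more frequent in miR-10a in both libraries. The intervals of its share in the 2 libraries overlapped for each member.

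Counted by seed over both members, reads that begin at nt 1 stood at 5932 RPM at peak lactation and 2810 RPM at late lactation, a log2 ratio of -1.08 (-1.10 to -1.06). Reads that begin at nt 2, with the shifted seed CCCTGTA, stood at 830 RPM and 356 RPM, a log2 ratio of -1.22 (-1.28 to -1.16). The shifted seed made up 12.2% of the miR-10 reads at peak lactation and 11.2% at late lactation. Within a member the intervals of the log2 ratios at nt 1 and nt 2 overlapped, with -2.14 (-2.21 to -2.08) at nt 1 and -2.23 (-2.37 to -2.10) at nt 2 in miR-10a, and -0.89 (-0.91 to -0.87) and -0.86 (-0.93 to -0.80) in miR-10b. In the late library miR-10a, which begins at nt 2 more often, also made up a smaller share of the miR-10 reads.

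A start at nt 2 was not rare among other groups. The median share over the 243 other groups was 4.84% at peak lactation, with quartiles at 0.370% and 16.6%, and 5.58% at late lactation, with quartiles at 0.432% and 20.3%. At peak lactation 49 groups had a higher share than miR-10a and 98 had a higher share than miR-10b.

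An extra A before nt 1 was seen mainly in miR-10a. It had 237 reads at peak lactation (0.792%, 95% exact binomial interval 0.695% to 0.899%) and 30 at late lactation (1.15%, 0.777% to 1.64%). In miR-10b it had 1 read at peak lactation, of 99142, and 19 at late lactation (0.0911%, 0.0549% to 0.142%). Counting any base before nt 1, miR-10a had 241 reads at peak and 34 at late lactation. Their log2 ratio was -1.46 (-2.02 to -0.94), above that of its reads that begin at nt 1. For miR-10b these reads numbered 26 and 30, with a higher level in the late library, log2 1.57 (0.77 to 2.39), opposite in sign to its other starts. Tags that begin at nt 3 fell outside the rule and had 6 reads at peak lactation and 1 at late lactation for miR-10a, and 2 and 4 reads for miR-10b.

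Both ends moved together. Of the miR-10a reads that begin at nt 1, 32.3% ended at nt 23 or later at peak lactation (31.7% to 32.9%) and 28.6% at late lactation (26.7% to 30.6%), while of those that begin at nt 2, 67.5% (66.3% to 68.7%) and 68.3% (63.9% to 72.5%) did. For miR-10b these shares were 11.3% (11.1% to 11.5%) and 16.6% (16.1% to 17.1%) at a start of nt 1, and 56.9% (55.9% to 57.8%) and 64.5% (62.4% to 66.5%) at a start of nt 2. A read that lacked the first base thus tended to run on at its 3′ end, in both members and both libraries.

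The mean length changed little with the start. For miR-10a at peak lactation it was 22.3 nt at a start of nt 1 and 21.9 nt at nt 2, and for miR-10b it was 22.1 nt and 21.9 nt. The mean last base was later by 0.644 nt (peak) and 0.769 nt (late) at a start of nt 2 in miR-10a, and by 0.793 nt and 0.850 nt in miR-10b.

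This coupling was not particular to the members. Among other groups with at least 100 reads at each start, the mean last base was later at nt 2 in 144 of 171 groups at peak lactation, with a median of 0.472 nt, and in 133 of 151 groups at late lactation, with a median of 0.336 nt. A larger value than that of miR-10a was found in 62 groups at peak lactation and 40 at late lactation, and a larger one than that of miR-10b in 56 and 38.

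**Figure D5:**
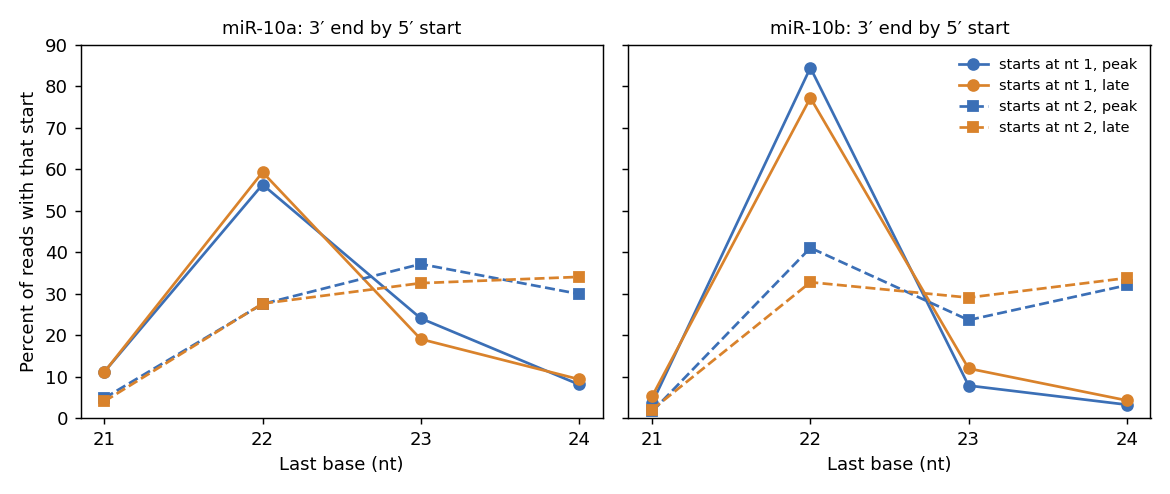
Share of reads that end at nt 21 to 24 (horizontal axis) among reads that begin at nt 1 (circles, solid lines) or nt 2 (squares, dashed lines), for miR-10a (left) and miR-10b (right) in the peak and late libraries. Reads that begin at nt 1 peak at nt 22 in each panel, at 84.4% for miR-10b at peak lactation, and reads that begin at nt 2 are spread over nt 22 to 24, with 29.94% to 34.05% of them at nt 24.

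Most tags of either member were found at 1 stage only, as were most tags of the whole series. Of its 659118 tags, 466727 were found at peak lactation and 259250 at late lactation. The share found in both was smaller over the whole series than in either member. Of the 119 tags of miR-10a, 111 were found at peak lactation, 46 at late lactation and 38 in both. Of the 249 tags of miR-10b, 183 were found at peak lactation, 146 at late lactation and 80 in both. The number of tags grows with the number of reads, which was larger at peak lactation. The tags shown above held 89.2% of the miR-10a reads at peak lactation and 85.8% at late lactation, and 91.1% and 88.3% of the miR-10b reads. Tags over 30 nt that hold a member sequence, beyond the size cut from the gel, had 12 reads of miR-10a and 36 of miR-10b at peak lactation, and 0 and 6 reads at late lactation.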

How the data were processed

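The authors pooled the RNA of 5 goats at each stage, sequenced the fraction of 18 to 30 nt on an Illumina 1G Genome Analyzer, trimmed adaptors, removed low-quality and short reads and collapsed identical reads. They deposited counts of reads per distinct tag, without normalization or names. These steps used tools with versions not given in the sources used here. Mapping and naming by the authors were not used here.

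Counts were scaled to 1000000 clean reads per library (RPM). No mature sequences were used from outside the tags. The pair was taken from the tags as the one sequence with both A and T at base 12, and its names follow from the known difference of miR-10a and miR-10b at that base. The names of 2 neighbouring tags likewise rest on their known sequences. The members, lists and tests were chosen with earlier results of these data known. The planned background of named microRNAs was replaced by groups of tags with the same nt 2 to 18, and scaling by named microRNAs was not run. Only a count of exactly 0 was set to 0.01 RPM in group ratios, as for 1104 of 7766 groups. Counts of 1 to 3 reads kept their own RPM, where 3 reads are 0.158 RPM in peak and 0.406 RPM in late lactation. Named forms are the 5 most abundant tags of each member in each library, and named groups are the 3 nearest in log2 ratio to each member. Intervals are at 95%, counting error only (exact Poisson for levels, exact binomial for shares and ratios). No p-value was computed. The procedure was tested on simulated data, and the outcome of that test is not given here. Alternatives were other scalings (TMM of edgeR 4.0.16, median ratio of DESeq2 1.42.0, from tags that reached 10 reads at both stages), other matches and minimum reads. The software was matplotlib 3.10.9, scipy 1.17.1, pandas 2.3.3, numpy 2.4.6, Python 3.11.15 and R 4.3.3.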

Additional observations from a re-analysis of the deposited data

How the results depend on the processing

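No alternative reversed the direction of either member or of the shift toward miR-10b. With the 10 most abundant tags left out of the totals, which adds 0.085 to every log2 ratio, the log2 ratio was -2.07 for miR-10a and -0.80 for miR-10b, and with median-ratio factors that of miR-10b was -0.91. With only the most abundant tag of each member, chosen after seeing the data, the log2 ratios were -2.09 and -1.03, so miR-10b then passed 2-fold, and the share of miR-10b was 84.8% in peak and 92.1% in late lactation. Among tags that start at nt 1, that share was 78.7% and 89.8%, and the leading form made up 55.2% (peak) and 57.4% (late) of miR-10a and 83.4% and 75.6% of miR-10b. Among tags with at least 10 reads the leading form made up 68.4% of miR-10b in late lactation. The lean of the background did turn. Of the 7766 groups 39.5% were higher at 2-fold and 26.6% lower, against 25.9% and 34.5% at 100 RPM, 36.2% and 60.9% with a minimum of 1 read, and 30.7% and 40.1% over distinct tags. With a minimum of 1 read, a group found in 1 library alone is called by rule, so those shares follow depth as well. The other 28 values moved by less than the counting error or, for shares of groups, by less than 1.5 times. No replicate could be left out, with 1 library per stage. No paired analysis was possible because each stage had 1 pooled library with no replicate number. Depth limits the rare end forms, above all those of miR-10a in the late library.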
